A study of Mus musculus with 9 samples.

Results

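The regions described here are places in the genome where MEIS1 was called in both libraries of cells with induced TGIF1 and in neither library of uninduced cells. All peaks of the 4 MEIS1 lists were merged where they shared at least 1 bp, which gave 55113 merged regions. Of these, 640 carried a peak from both libraries treated with 4-hydroxytamoxifen (4-OHT) and none from either ethanol (EtOH) library, and they are called 4-OHT only regions. They made up 1.16% of the merged regions and 3.24% of the 19735 regions with both MEIS1 4-OHT peaks. The regions were chosen by the presence or absence of peaks in the 4 MEIS1 lists, so their MEIS1 values are given as a description and without a test. The TGIF1 lists played no part in the choice.

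The series is chromatin immunoprecipitation followed by sequencing (ChIP-seq), which recovers DNA bound by a protein and maps it as peaks. All cells were mouse (C57BL/6) bone marrow cells positive for c-kit, a receptor of blood progenitors, transformed by MLL-AF9, the fusion oncogene of an acute myeloid leukaemia. All of them, the uninduced cells included, also carried pMIG-TGIF1-ER, which encodes TGIF1 joined to an estrogen receptor part and is inducible by 4-OHT. There were 4 groups of 2 libraries: TGIF1 under EtOH, TGIF1 after 20 h of 4-OHT, MEIS1 under EtOH, and MEIS1 after 20 h of 4-OHT. Without 4-OHT-treated cells that lacked TGIF1-ER, an action of 4-OHT and one of induced TGIF1 cannot be told apart. Nothing in the labels states that libraries within a group were grown separately, and their spread may therefore be technical. The identity of the cells was not checked against marker genes, because the lists hold peak positions only.

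MEIS1 and TGIF1 are both homeodomain proteins of the TALE class and recognise closely related short DNA sequences. MEIS1 works with HOX and PBX proteins, keeps blood progenitors in an immature state and is a main driver of leukaemia with MLL fusions. TGIF1 is a repressor, known for restraining SMAD proteins in TGF-beta signalling and retinoid receptors. Because the proteins recognise similar sequences, a site bound by one is a possible site of the other. The series was designed to examine where each of them binds in these cells. The 4-OHT only regions are the sites where MEIS1 was called in both libraries with TGIF1 induced and in neither library without.

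The lists give no read number, height or score, so the depth of each library is unknown and peak length is the only measure of size. The MEIS1 lists held 26254 (EtOH replicate 1), 43564 (EtOH replicate 2), 21173 (4-OHT replicate 1) and 48829 peaks (4-OHT replicate 2). The TGIF1 lists held 2764 and 592 peaks under EtOH and 12141 and 26932 after 4-OHT. Lists of such unequal length matter here, since a region counts as 4-OHT only when 2 lists lack a peak.

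With all 4 libraries, the 4-OHT only regions were about as many as their mirror image, a balance that single libraries changed. Regions with a peak in both MEIS1 EtOH libraries and in neither 4-OHT library numbered 664, or 1.20% of all merged regions and 2.92% of those with both MEIS1 EtOH peaks. A further 501 regions had a peak in MEIS1 4-OHT replicate 1 alone, and 8333 had one in MEIS1 4-OHT replicate 2 alone. Just outside the rule were 229 regions with both 4-OHT peaks and a peak in EtOH replicate 1 only, and 3016 with both 4-OHT peaks and a peak in EtOH replicate 2 only. All 4 MEIS1 libraries had a peak at 15850 regions.

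The number of 4-OHT only regions rested on 3 of the 4 MEIS1 libraries. It was 3705 without MEIS1 EtOH replicate 2, the longer EtOH list, and 8975 without MEIS1 4-OHT replicate 1, the shorter 4-OHT list. Leaving out MEIS1 4-OHT replicate 2 gave 1157. Leaving out MEIS1 EtOH replicate 1 gave 869. The EtOH only regions, recomputed in the same way after the data were seen, numbered 761 and 6820 when 4-OHT replicate 1 or 4-OHT replicate 2, respectively, was left out. They numbered 4733 and 2121 when EtOH replicate 1 or EtOH replicate 2, respectively, was left out. Either set could thus be the larger one. In each run the rules were unlike. The set of the treatment that lost a library needed fewer peaks, and the other set needed fewer absences. Peak length mattered for which regions were members: with only the longer 50% of each list kept there were 491 members, and 40 of the 640 overlapped one of them.

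**Figure D1:**
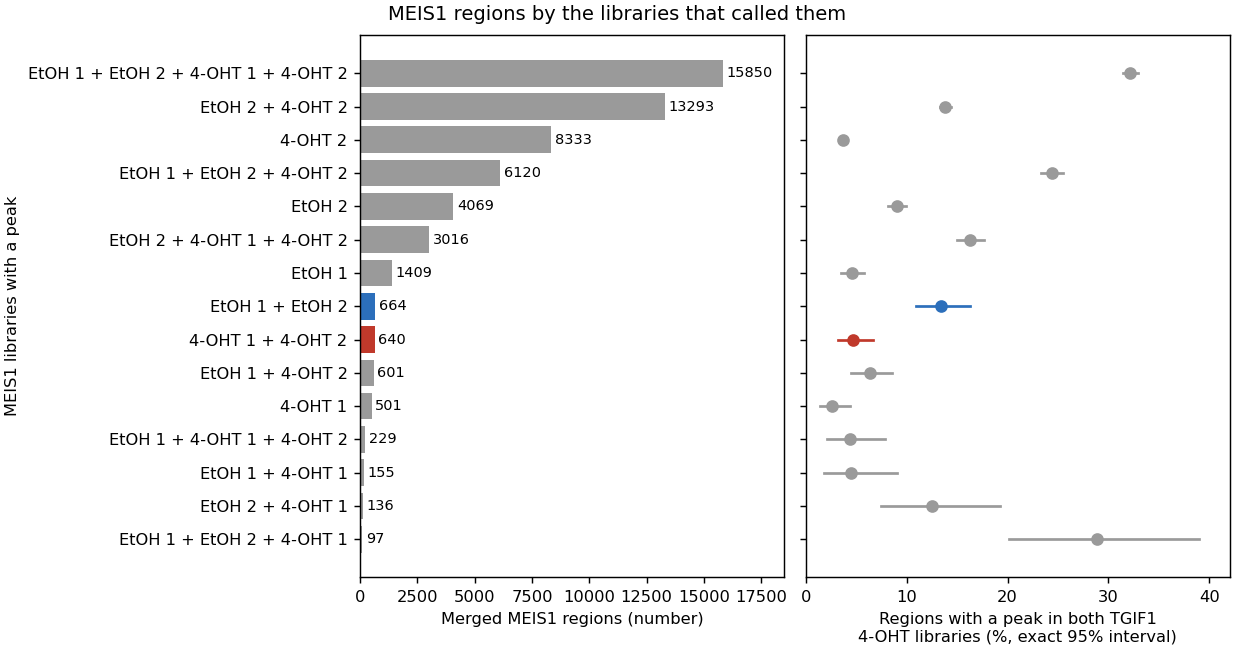
Left, the number of merged MEIS1 regions (horizontal axis) for each combination of MEIS1 libraries that called a peak there. Right, the percentage of these regions where TGIF1 was called in both 4-OHT libraries, with exact 95% intervals. The 640 regions called in both 4-OHT libraries only (red) carried both TGIF1 peaks in 4.69% of cases, beside 13.4% of the 664 regions called in both EtOH libraries only (blue) and 32.2% of the 15850 regions called in all 4.

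MEIS1 peaks at the 4-OHT only regions were short. In MEIS1 4-OHT replicate 1 they ranged from 186 to 2490 bp with a median of 365 bp, beside 447 bp over all regions with both 4-OHT peaks. In MEIS1 4-OHT replicate 2 they ranged from 254 to 4911 bp with a median of 486 bp, beside 626 bp. The mean of the 2 medians was 425.5 ± 85.6 bp (SD, n = 2). Ranked by length within its own list, the median peak stood at the 23.1st percentile of replicate 1 and at the 25.01st percentile of replicate 2, where the longest peak is at 100. The EtOH only regions were alike in this, with medians at the 29.1st percentile of MEIS1 EtOH replicate 1 and the 26.2nd of replicate 2. In contrast, the regions called in all 4 MEIS1 libraries stood at the 57.6th and 66.0th percentiles of the 4-OHT lists.

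Merged, the 4-OHT only regions were 327 to 4928 bp wide with a median of 500.5 bp, and 11 of the 640 exceeded 1000 bp. All but 4 of them held 1 peak from each 4-OHT library, and those 4 held several peaks of a 4-OHT list. The summits, the highest points of the peaks, agreed between the 4-OHT libraries to a median of 18 bp (quartiles 9 and 35 bp) and within 50 bp at 553 regions (86.4%). Over all regions with both 4-OHT peaks the median was 14 bp, and 87.2% were within 50 bp.

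By the rule, no 4-OHT only region overlapped a MEIS1 peak of uninduced cells, so only the size of the gap is described. The nearest MEIS1 EtOH peak was 6 to 1615383 bp away, with a median of 12156 bp and quartiles of 3256 and 29709 bp. It was within 100 bp at 8 regions, within 500 bp at 32 and within 1000 bp at 60 (9.38%), and more than 10000 bp away at 349. For the EtOH only regions, the nearest MEIS1 4-OHT peak lay at a median of 5276 bp. The 4-OHT lists together hold about as many peaks as the EtOH lists, but such totals count a site in both lists of a treatment again. How the density of peaks bears on these gaps was not tested.

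At the edge of the rule, the 5 regions nearest to an EtOH peak had gaps of 6, 10, 23, 40 and 43 bp. In the same order they lay at chr13:110054038-110054574, chr15:96105609-96106071, chr15:8412809-8413461, chr10:121023629-121024213 and chr9:88168806-88169212 (all coordinates are mm9, counted from 1). Those with gaps of 10 and 40 bp had peaks of both TGIF1 4-OHT libraries, and that with a gap of 43 bp had one of TGIF1 4-OHT replicate 2. Their nearest EtOH peak was one of replicate 2 in each case, the longer EtOH list. On the other side of the rule, EtOH and 4-OHT peaks of a region shared at least 157 bp, and the 5 lowest values were 157, 171, 175, 188 and 192 bp. None of the 19095 regions with both 4-OHT peaks and an EtOH peak shared 100 bp or less. The shared length was that of the pair of peaks with the most overlap, which favours high values. With a reciprocal overlap of 50% required, the 4-OHT only regions numbered 932.

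TGIF1 was called at few of the 4-OHT only regions, and also at few of the regions called by some single MEIS1 libraries. In cells with induced TGIF1, 35 of the 640 regions (5.47%, exact 95% interval 3.84 to 7.52%) had a TGIF1 peak in replicate 1 and 68 (10.6%, 8.35 to 13.3%) had one in replicate 2. The background was 29.0% in replicate 1 and 49.4% in replicate 2, the share of all 19735 regions with both MEIS1 4-OHT peaks. In uninduced cells, 2 of the 640 regions (0.312%, 0.0379 to 1.12%) had a TGIF1 peak in replicate 1, against a background of 6.75%. None had one in replicate 2, where the exact 95% interval reaches 0.575%, and the background there was 1.35%. The share was below the background in each of the 4 TGIF1 libraries. Over all 55113 merged regions the backgrounds were lower, at 4.10% and 0.944% for the TGIF1 EtOH libraries and 18.3% and 38.1% for the TGIF1 4-OHT libraries, and the 4-OHT only regions were below these too. These intervals cover counting error only and treat regions as independent.

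Both TGIF1 4-OHT libraries had a peak at 30 of the 640 regions (4.69%, exact 95% interval 3.18 to 6.62%), where the background was 28.5%. Only 1 of these libraries had a peak at 43 regions, of which 38 had it in replicate 2, the longer list, and 5 in replicate 1. Either 4-OHT library had a peak at 73 regions (11.4%), against a background of 49.8%. Counting all 4 TGIF1 lists, 74 regions (11.6%) had a peak against a background of 49.9% (38.6% of all merged regions), and 566 regions (88.4%, 85.7 to 90.8%) had none. Shares as low or lower were found at regions called by a single MEIS1 library. Both TGIF1 4-OHT peaks were present at 3.68% of the 8333 regions of MEIS1 4-OHT replicate 2 alone, 2.59% of the 501 of MEIS1 4-OHT replicate 1 alone and 4.54% of the 1409 of MEIS1 EtOH replicate 1 alone. At the 4069 regions of MEIS1 EtOH replicate 2 alone the share was 9.02%.

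The EtOH only regions had a higher share with all 4 MEIS1 libraries, and the order turned with 1 library. Of the 664, 89 (13.4%, 10.9 to 16.2%) had both TGIF1 4-OHT peaks. Without MEIS1 EtOH replicate 2 the order was reversed, with 14.3% of 3705 4-OHT only regions and 7.45% of 2121 EtOH only regions. Without any of the other 3 MEIS1 libraries the 4-OHT only regions had 3.75 to 4.60% and the EtOH only regions 9.63 to 23.2%. In these runs too the rules of the sets were unlike. Per library, 13.7% of the EtOH only regions had a peak in TGIF1 4-OHT replicate 1 and 30.0% in replicate 2. Regions are not replicates, so no test across regions was made. With the MEIS1 lists cut to equal length there were 591 4-OHT only regions, which 69 of the 640 overlapped. Those that none of the 640 overlapped had a MEIS1 EtOH peak in the full lists. The shares were then 12.4% of the 4-OHT only regions, 22.9% of the 616 EtOH only regions and 37.3% of all regions with both MEIS1 4-OHT peaks.

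**Figure D2:**
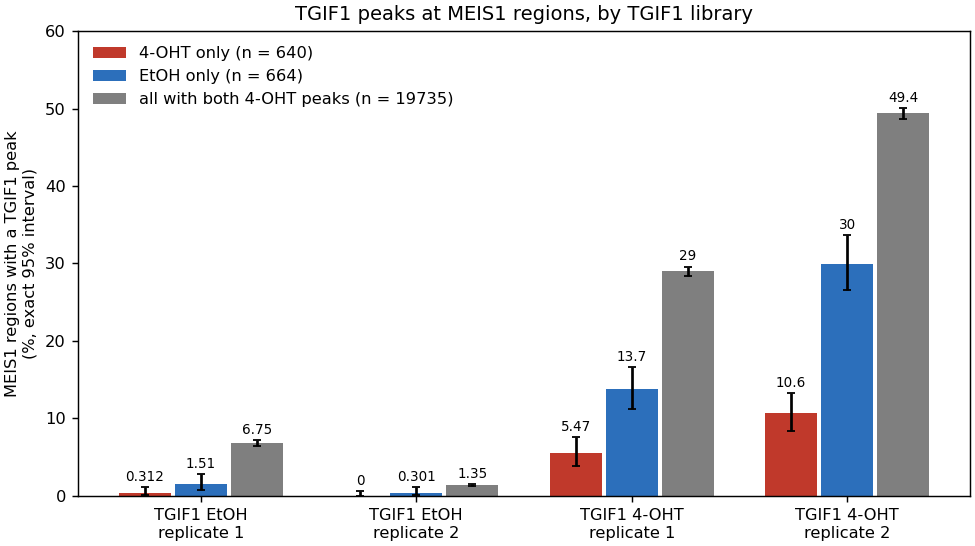
Percentage of MEIS1 regions with a peak in each TGIF1 library (vertical axis, exact 95% intervals) for the 4-OHT only regions, the EtOH only regions and all regions with both MEIS1 4-OHT peaks. The 4-OHT only regions have the lowest bar in each library, with 5.47% and 10.6% after induction beside 29.0% and 49.4% of all regions with both 4-OHT peaks.

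More of the 4-OHT only regions carried TGIF1 in induced than in uninduced cells, although 2 libraries a group could not establish it. The mean share was 8.05 ± 3.65% (SD, n = 2) in the TGIF1 4-OHT libraries and 0.156 ± 0.221% (SD, n = 2) in the TGIF1 EtOH libraries. Both 4-OHT libraries, with 35 and 68 regions, exceeded both EtOH libraries, with 2 and 0, and the groups did not overlap. This was not particular to these regions. Over all regions with both MEIS1 4-OHT peaks the shares were 29.0% and 49.4% after 4-OHT, against 6.75% and 1.35% under EtOH. The difference of the mean log2(count + 1) was 4.85, and the two-sided exact permutation test over the libraries gave p = 0.333, the smallest value that 2 against 2 libraries allow. The TGIF1 lists differ in length in the same order. With each list reduced to its 592 longest peaks the difference was 0.79 (exact permutation p = 0.667). That run rested on 1 and 0 regions under EtOH and 2 and 1 after 4-OHT. These counts are too few to show how list length bears on the difference.

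Seen from the TGIF1 side, the 4-OHT only regions took up little of any list. They held 36 of the 12141 peaks of TGIF1 4-OHT replicate 1 (0.297%) and 68 of the 26932 of replicate 2 (0.252%). The EtOH only regions held 0.750% and 0.743% of the same lists. Regions with both MEIS1 4-OHT peaks held 49.7% and 37.5%.

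The share with TGIF1 differed with the EtOH library that lacked the MEIS1 peak. Among the 229 regions just outside the rule with a peak in MEIS1 EtOH replicate 1 only, 10 (4.37%, exact 95% interval 2.11 to 7.88%) had both TGIF1 4-OHT peaks, close to the 4.69% of the 4-OHT only regions. Among the 3016 with a peak in MEIS1 EtOH replicate 2 only, 491 did (16.3%, 15.0 to 17.6%). At regions called in all 4 MEIS1 libraries the share was 32.2% (31.4 to 32.9%). Without MEIS1 EtOH replicate 2, which lets these 3016 regions in, 14.3% of the 3705 resulting 4-OHT only regions had both TGIF1 peaks.

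Long MEIS1 peaks carried TGIF1 more often, and most 4-OHT only regions had short ones. The 19735 regions with both 4-OHT peaks were put into 5 equal classes by the mean length rank of their 2 MEIS1 4-OHT peaks. The shortest class held 400 of the 640 regions (62.5%), the next 153, and the others 55, 23 and 9 in order of length. In the shortest class, 11 of the 400 (2.75%, exact 95% interval 1.38 to 4.87%) had both TGIF1 4-OHT peaks, beside 14.4% (13.3 to 15.6%) of the other regions of that class. In the second class it was 8 of 153 (5.23%, 2.28 to 10.04%) beside 20.5%, and in the middle class 4 of 55 (7.27%, 2.02 to 17.6%) beside 26.4%.

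The classes of longer peaks held few 4-OHT only regions. In the fourth class 5 of 23 (21.7%, 7.46 to 43.7%) had both TGIF1 peaks, beside 34.8%, and in the longest 2 of 9 (22.2%, 2.81 to 60.01%) beside 48.7%. These rest on 5 and 2 regions. Weighting the other regions to the same classes gave 18.1%, so the 4-OHT only regions had 0.259 times that share. For the EtOH only regions, ranked and weighted in the same way on the EtOH lists, the shares were 13.4% and 18.2%, a ratio of 0.738. With TGIF1 in either 4-OHT library, the 4-OHT only regions had 11.4% and the other regions, so weighted, 34.8%. The classes match the length of MEIS1 4-OHT peaks and not the width of the merged regions. That width was at a median of 717 bp for the other regions, beside 500.5 bp for the 4-OHT only regions. A wider region can overlap a TGIF1 peak more easily, and the part of width in these shares was not tested.

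**Figure D3:**
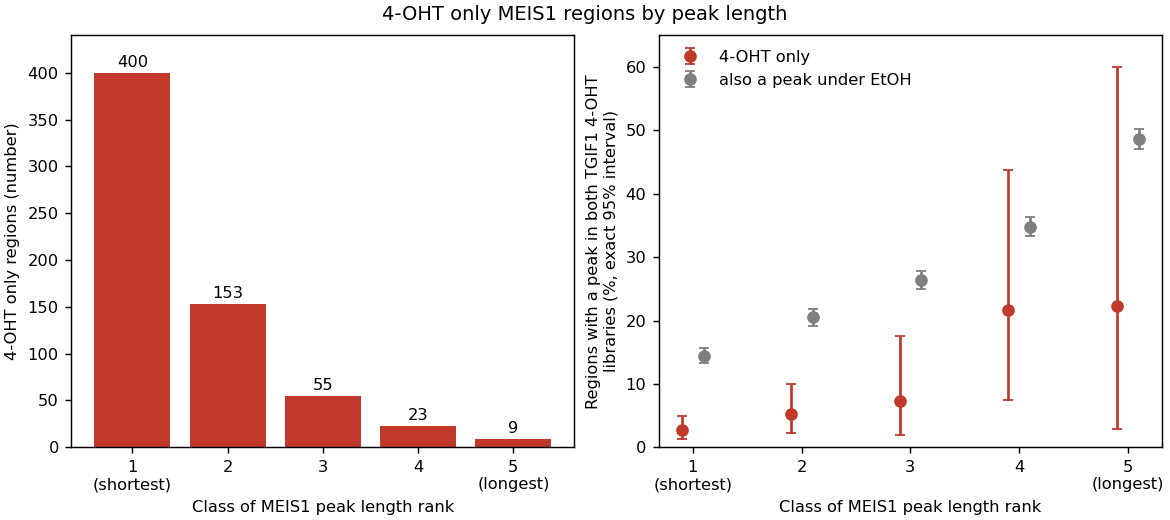
Left, the number of 4-OHT only regions in each of 5 equal classes of MEIS1 peak length rank. Right, the percentage of regions where both TGIF1 4-OHT libraries had a peak in each class (exact 95% intervals), for the 4-OHT only regions (red) and for regions with both MEIS1 4-OHT peaks and also an EtOH peak (grey). The red points lie below the grey ones in all 5 classes, with 2.75% beside 14.4% in the shortest class, and the intervals are wide where only 23 and 9 regions are left.

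The surroundings of the 4-OHT only regions also held fewer peaks. Peaks of both TGIF1 4-OHT libraries within 1000 bp were found at 41 regions (6.41%), within 5000 bp at 66 (10.3%) and within 50000 bp at 268 (41.9%). For all regions with both MEIS1 4-OHT peaks the shares were 31.2%, 38.0% and 69.4%, and for the EtOH only regions 18.8%, 30.4% and 69.3%. At 50000 bp the EtOH only regions were thus close to all regions, and the 4-OHT only regions were not. Regions called in all 4 MEIS1 libraries were likewise sparser around them. The nearest such region, centre to centre, was at a median of 29649 bp from the 4-OHT only regions, 21050 bp from the EtOH only regions and 20345 bp over all regions with both 4-OHT peaks. No such region lay within 50000 bp of 238 of the 640 (37.2%), beside 24.2% of the EtOH only regions and 26.2% of all. The 229 regions with both 4-OHT peaks and a peak in MEIS1 EtOH replicate 1 only were like the 4-OHT only regions in these values. They had both TGIF1 4-OHT libraries within 50000 bp in 44.1%, a median of 30883 bp to the nearest region of all 4 libraries, and none within 50000 bp in 38.4%.

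**Figure D4:**
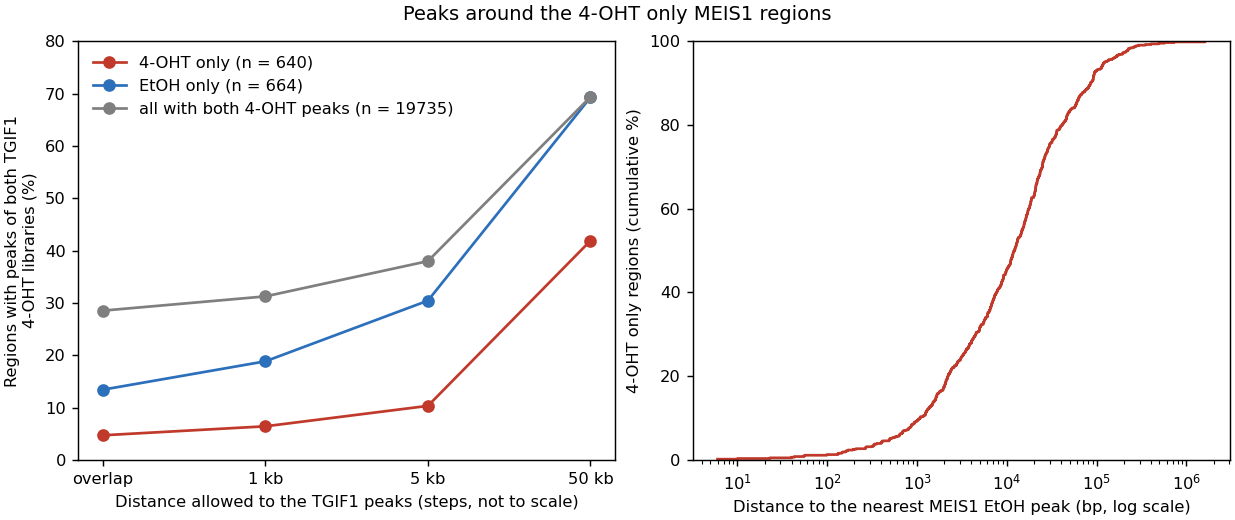
Left, the percentage of regions with peaks of both TGIF1 4-OHT libraries at increasing allowed distance (steps, not to scale). The 4-OHT only regions go from 4.69% to 41.9% and all regions with both MEIS1 4-OHT peaks from 28.5% to 69.4%. Right, the cumulative percentage of the 640 regions by distance to the nearest MEIS1 EtOH peak (log scale), which has its median at 12156 bp.

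The 4-OHT only regions were scattered over the genome. They fell on all 19 autosomes and X and into 530 windows of 1 Mb, of which 434 held 1 region, 85 held 2, 8 held 3 and 3 held 4. The nearest other 4-OHT only region was at a median of 1004696 bp, within 100000 bp for 75 regions (11.7%) and within 10000 bp for 14. Chromosome 13 held the most, 57 regions or 8.91% of the 640, although it had 6.02% of all regions with both MEIS1 4-OHT peaks. Put the other way, 4.79% (exact 95% interval 3.65 to 6.17%) of the latter regions on chromosome 13 were 4-OHT only, beside 3.24% genome-wide. The lowest shares were on chromosome 19 (12 regions, 1.92%, 0.994 to 3.32%), chromosome 10 (21 regions, 2.09%, 1.30 to 3.18%) and chromosome 9 (23 regions, 2.15%, 1.37 to 3.21%). Chromosome 13 was low in the mirror set, where 1.62% of its regions with both MEIS1 EtOH peaks were EtOH only, beside 2.92% genome-wide. These chromosomes were named after their values were seen.

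Of the 3 windows with 4 regions, the one on chromosome 17 was the only one in which all 4 carried TGIF1. They lay at chr17:6317204-6317802, chr17:6428931-6429570, chr17:6607744-6608173 and chr17:6860346-6860919. Each had a peak in TGIF1 4-OHT replicate 2, and those starting at 6428931 and 6607744 also had one in replicate 1. The window held 24 regions with both MEIS1 4-OHT peaks, and how many of these had TGIF1 was not examined. Genome-wide, TGIF1 4-OHT replicate 2 had a peak at 49.4% of such regions and at 10.6% of the 4-OHT only regions. In the window on chromosome 16, between 91261101 and 91852578, 1 of the 4 had a TGIF1 peak, in 4-OHT replicate 2. In the window on chromosome 5, between 125070722 and 125886289, 1 of the 4 had peaks of both TGIF1 4-OHT libraries. These windows too were named after their values were seen.

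The 30 regions with both TGIF1 4-OHT peaks lay on 14 chromosomes, with 5 on chromosome 15 and 4 on chromosome 5, both named after their values were seen. Chromosomes 15 and 5 held 33 and 35 of the 640 4-OHT only regions. Of all 5627 regions with both MEIS1 and both TGIF1 4-OHT peaks, they held 387 and 370. The 30 regions were 430 to 2223 bp wide with a median of 587 bp, beside 498 bp for the 567 regions without TGIF1 after 4-OHT. Their MEIS1 peaks had medians of 380 bp in 4-OHT replicate 1 and 577.5 bp in replicate 2, beside 363 and 482 bp without TGIF1. The nearest MEIS1 EtOH peak was also closer, at a median of 4915.5 bp beside 12850 bp. Nonetheless 11 of the 30 were more than 10000 bp from any MEIS1 EtOH peak. TGIF1 peaks at 4-OHT only regions were shorter than the rest of their lists. Their median was 386 bp in TGIF1 4-OHT replicate 1, at the 31.1st percentile of the list, and 506.5 bp in replicate 2, at the 35.7th percentile. TGIF1 peaks at the EtOH only regions were short too, with medians of 409 bp (39.5th percentile) in replicate 1 and 537.5 bp (43.7th percentile) in replicate 2.

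Where both proteins were called, their summits lay close together. Over the 35 regions with a peak of TGIF1 4-OHT replicate 1, its summit was at a median of 25 bp from that of MEIS1 4-OHT replicate 1 (quartiles 11.5 and 55.5 bp) and within 50 bp in 23. Over the 68 regions with a peak of TGIF1 4-OHT replicate 2, the median to the MEIS1 summit of replicate 2 was 33.5 bp, and 44 were within 50 bp. For all regions with both MEIS1 4-OHT peaks these medians were 29 and 25 bp. For the EtOH only regions, the summits of MEIS1 EtOH and TGIF1 4-OHT lay at medians of 21 bp in replicate 1 and 22 bp in replicate 2. In the 30 regions with both TGIF1 peaks, 20 or 21 were within 50 bp in each of the 4 pairs of a MEIS1 with a TGIF1 library. Overlapping peaks are not independent, and these distances carry no test.

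The 30 regions with both TGIF1 peaks were led by one at chr5:125866457-125868679, by the length rank of their MEIS1 peaks. Its MEIS1 peak was 2223 bp long in 4-OHT replicate 2, and replicate 1 had 2 peaks there, the longer of 1109 bp. TGIF1 peaks of up to 1228 bp in replicate 1 and 2346 bp in replicate 2 overlapped it, and a MEIS1 EtOH peak lay 720 bp away. Its summits were spread, with 110 bp between MEIS1 and TGIF1 in replicate 1 and 567 bp in replicate 2.

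The second, at chr5:105886967-105887876, had MEIS1 peaks of 797 and 910 bp and TGIF1 peaks of 1074 and 1340 bp in replicates 1 and 2. The MEIS1 and TGIF1 summits were 13 bp apart in replicate 1 and 58 bp apart in replicate 2. Next, the region at chr15:98815581-98816645 had MEIS1 peaks of 434 and 1065 bp and TGIF1 peaks of 605 and 1049 bp. Here the summits of the 2 proteins stood 389 and 467 bp apart. The fourth, at chr17:6428931-6429570, had MEIS1 peaks of 634 and 549 bp and TGIF1 peaks of 476 and 1262 bp. It lay 145 bp from a MEIS1 EtOH peak of replicate 1.

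The other 6 of the leading 10 with both TGIF1 peaks followed in the order of length rank. At chr11:68320674-68321463 the MEIS1 peaks measured 461 and 746 bp and the TGIF1 peaks 407 and 527 bp. At chr12:78269533-78270273 they measured 462 and 741 bp for MEIS1 and 653 and 832 bp for TGIF1. At chr17:34046021-34047388 the MEIS1 peaks measured 393 and 1368 bp. The remaining 3 of the 10 were at chr5:3151966-3152752, chr3:32326486-32327139 and chr15:80361383-80361935. The last of these was 28530 bp from the nearest MEIS1 EtOH peak, and its summits in replicate 1 were 5 bp apart.

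**Figure D5:**
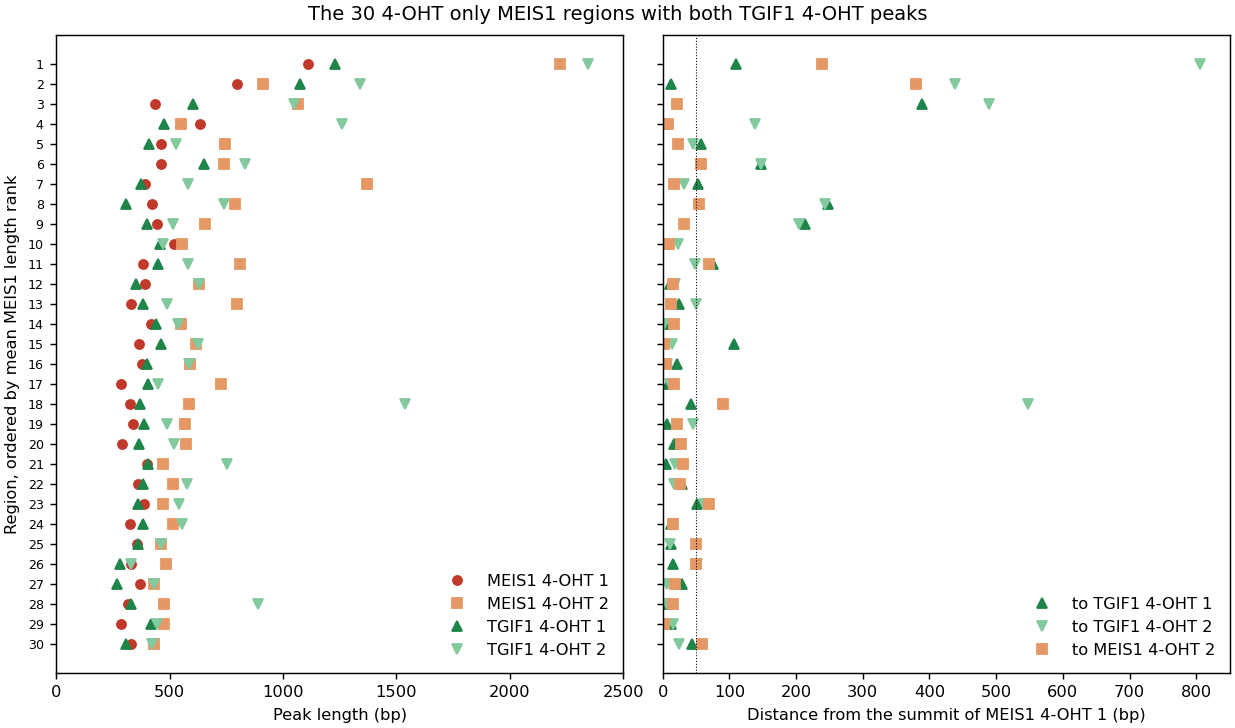
The 30 regions with peaks of both MEIS1 4-OHT and both TGIF1 4-OHT libraries, ordered by MEIS1 length rank (1 is the longest). Left, the length in bp of the longest peak of each library in the region, and right, the distance in bp from the summit of MEIS1 4-OHT replicate 1 to the other summits, with a dotted line at 50 bp. The first region reaches 2346 bp and most of the others stay below 1000 bp, and 20 of the 30 TGIF1 summits of each replicate lie within the dotted line.

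TGIF1 under EtOH was called at 2 of the 4-OHT only regions, both in replicate 1. The first, at chr1:84987575-84992502, was the widest of all 640 at 4928 bp, with a MEIS1 peak of 4911 bp in 4-OHT replicate 2 and a longest peak of 2490 bp in replicate 1. Its TGIF1 EtOH peak was 692 bp long, and no TGIF1 4-OHT library had a peak there. The MEIS1 summits of the 2 libraries were 3713 bp apart. The second, at chr11:60777822-60778474, had MEIS1 peaks of 421 and 653 bp, a TGIF1 EtOH peak of 336 bp and a TGIF1 peak of 356 bp in 4-OHT replicate 1, with none in 4-OHT replicate 2.

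By length rank the 10 leading 4-OHT only regions were mostly without TGIF1, as were 88.4% of all 640. In the longest of the 5 length classes, 2 of the 9 4-OHT only regions had a peak of either TGIF1 4-OHT library. Among the other regions of that class 75.5% did. After the region on chromosome 1 just described and the first on chromosome 5, came a region at chr1:87477162-87478979 with MEIS1 peaks of 1389 and 1818 bp. A pair lay 21087 bp apart on chromosome 11. The one at chr11:48669315-48670724 had peaks of 964 and 1410 bp, and the one at chr11:48647180-48648228 had peaks of 892 and 1049 bp. None of these 3 had a TGIF1 peak in any of the 4 lists. The sixth was the region at chr5:105886967-105887876 described above.

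The remaining 4 were at chr10:98895928-98896722, chr9:102230112-102230815, chr2:11385898-11386832 and chr15:66723628-66724511. None of them had a TGIF1 peak. The region on chromosome 9 stood alone, 212014 bp from the nearest MEIS1 EtOH peak and 11655301 bp from the nearest other 4-OHT only region. Its MEIS1 peaks were 630 and 704 bp long with summits 10 bp apart.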

How the data were processed

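ChIP-seq peaks of TGIF1 and MEIS1 in 8 libraries were used, 2 per group. A 9th sample, non-specific IgG, was not analysed here. Per the submitters' processing notes, reads were aligned with Bowtie 0.12.7 to mm9. The header of 1 deposited list, that of MEIS1 4-OHT replicate 2, gives MACS 1.4.2 as the peak caller. For the other lists the caller is not given in the sources used here, nor are thresholds, control and filters for any list. The deposited lists give start, end, length and summit offset in bp, with no score or read number, so depth and precision per library are unknown. DNA fragments averaged 300 bp, per the labels' protocols.

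Groups and replicate numbers came from the sample titles. Members, lists and tests were chosen with earlier results of these data known. Regions were merged at 1 bp overlap. TGIF1 presence needed 1 bp. Length rank took the place of a score. Regions were named by rule: the 10 of greatest mean length rank, the 10 of greatest rank with both TGIF1 4-OHT peaks, those with a TGIF1 EtOH peak, and the 5 nearest to an EtOH peak. Any region or chromosome named otherwise is marked. Intervals are exact (Clopper-Pearson, 95%), also for a count of 0. TGIF1 counts were compared by a two-sided exact permutation test on log2(count + 1). Alternatives covered overlap, gaps, list length, single libraries, summits and the added count. Those for the EtOH only regions were added after seeing the data. Planned motifs and neighbouring genes were not run, and no sequence is printed, because a genome and annotation of mm9 were not used here.

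Python 3.11.15, numpy 2.4.6, pandas 2.3.3, scipy 1.17.1 and bedtools 2.31.1 were used. Merging was checked against bedtools and gave 55113 identical regions. On simulated data 200 of 200 planted 4-OHT only regions were found.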

Additional observations from a re-analysis of the deposited data

How the results depend on the processing

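The share of 4-OHT only regions with both TGIF1 4-OHT peaks was below that of all regions with both MEIS1 4-OHT peaks in all 10 alternatives run. The alternatives reuse the same lists and are not independent. Leaving out single MEIS1 libraries gave 3.75 to 14.3% for the former and 19.4 to 28.5% for the latter. Leaving out a TGIF1 4-OHT library meant that a peak in the other was enough. The shares were then 10.6 and 49.4% without replicate 1, and 5.47 and 29.0% without replicate 2. With MEIS1 lists of equal length the shares were 12.4 and 37.3%. The share of all regions was 20.8% with a reciprocal overlap of 50%, 29.6% with gaps of up to 500 bp joined and 25.4% with the longer 50% of each list, beside 4.51%, 4.43% and 3.46% of the 4-OHT only regions. The number of 4-OHT only regions was 869 to 8975 on leaving out single libraries and 491 to 932 otherwise. All 640 were overlapped on leaving out each MEIS1 library, which was fixed in advance, since fewer lists only loosen the rule. With reciprocal overlap 599 were overlapped, and with gaps joined 605. By contrast 40 of the 640 overlapped the 491 found with the longer 50% of each list, and 69 the 591 found with MEIS1 lists of equal length. Most of the 640 have short peaks, which the last 2 settings remove. The 4-OHT only regions of these 2 settings that none of the 640 overlapped had a MEIS1 EtOH peak in the full lists. Their shares therefore mostly describe other regions.

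The log2 difference in TGIF1 counts was 4.05 to 5.64 without single libraries and 3.02 with the longer 50% of each TGIF1 list. With TGIF1 lists of equal length it was 0.79 (exact permutation p = 0.667), on counts of 0 to 2 regions. It was 4.83 with the TGIF1 summit required inside the region and 5.46 with 0.5 added. As a replicate block it was 4.85 (exact sign-flip p = 0.5, the smallest for 2 pairs). Nothing in the labels shows that the numbers pair the libraries. No setting could reach significance with 2 libraries a group, so these values do not speak to stability. Unknown depth limits every absence: a region without a peak in a list may still be bound.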
